A study of Schizosaccharomyces pombe with 6 samples.

Results

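The regions described here are the 85 intergenic intervals that lie between 2 neighbouring protein-coding genes transcribed toward each other, in the tiled 2.05 Mb of fission yeast (Schizosaccharomyces pombe) chromosome II. The rule that picks them uses the annotation of the ASM294v3 assembly and no measured value, although it was set with earlier results of these data known. Each interval holds the centre of at least 1 array probe. Of 253 neighbouring convergent pairs, 157 left no gap between the annotated genes, and 11 of the 96 gaps, of 1 to 42 bases, held no probe centre. The 85 intervals were 30 to 3118 bases long, with a median of 160 bases, and belong to 1511 features tested together: 85 convergent, 216 divergent and 337 tandem intervals and 873 protein-coding genes.

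Each of 6 two-colour tiling arrays compared DNA that co-precipitated with newly made, FLAG-tagged histone H3 (Cy5) with whole-cell extract DNA of the same cells (Cy3). All cells, WT included, carried the plasmid pINV1-H3.2-FLAG, which puts tagged H3 under a sucrose-inducible promoter. They grew in 8% glucose, were held for 4 h in 15 mM hydroxyurea, which stalls DNA replication, and were then shifted to 4% sucrose with hydroxyurea for 2 h before 20 min in 1% formaldehyde. There was 1 array of amo1D cells, 1 of rix1E414K cells, 1 of pob3D cells and 3 arrays of WT cells. Amo1 is a protein of the nuclear rim that holds heterochromatin at the periphery, Rix1 is a subunit of the rixosome, an RNA-processing complex also found at heterochromatin, and Pob3 is a subunit of the histone chaperone FACT. The D marks a deletion, and rix1E414K is a point mutant. Levels are log2 ratios of Cy5 over Cy3 minus the array's median, so 0 is the typical probe, and they describe where new H3 entered chromatin without replication. Median signals per array lay between 1018 and 1150 for the precipitate and between 993 and 1145 for the extract. Whether the WT arrays stand for separate cultures is not stated in the labels, and errors and p-values here cover no more than the spread from array to array. With 1 array per mutant, the smallest one-sided p of an exact permutation test against 3 WT arrays would be 0.25, so single values are given without it.

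Where 2 genes converge, 2 transcription units end: polyadenylation signals and terminators face each other, RNA polymerase II can read through into the neighbour, and the transcripts can overlap as sense and antisense. In yeasts, cohesin gathers at such sites, and several genes of the RNA interference machinery of fission yeast lie in convergent pairs. The interval holds neither promoter of its 2 flanking coding genes, in contrast to a divergent interval, which holds both. Another annotated gene lay inside 33 of the 85 intervals, and promoters of those genes were not mapped. Turnover of H3 outside replication is generally highest at promoters and over strongly transcribed DNA, and FACT takes nucleosomes apart and rebuilds them as polymerase passes. Because DNA was sheared to 400 to 600 bp and 71 of the 85 intervals were shorter than 400 bases, a probe in a short interval also reads DNA of both 3′ gene ends.

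The intervals are AT-rich, with a median GC content of 29.9%. Reference sequence from RefSeq (ASM294v3, plus strand) is given for intervals on which the results below turn. In the first 9, capitals mark unbroken runs of 6 or more A or T. The first 4 had the highest WT levels among intervals of at most 300 bases with 3 or more probes: SPBC16E9.15/lsd90 at chrII:1947839-1947984, bzz1/SPBC12C2.04 at chrII:2468740-2468857, tkt1/hmt2 at chrII:2588835-2589003 and cdc14/SPBC24C6.09C at chrII:2335030-2335175.
SPBC16E9.15/lsd90: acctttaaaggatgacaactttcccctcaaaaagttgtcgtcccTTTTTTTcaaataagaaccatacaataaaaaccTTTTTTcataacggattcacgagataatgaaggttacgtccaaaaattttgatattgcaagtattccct
bzz1/SPBC12C2.04: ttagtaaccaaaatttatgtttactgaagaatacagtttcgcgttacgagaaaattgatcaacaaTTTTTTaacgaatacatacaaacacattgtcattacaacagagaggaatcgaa
tkt1/hmt2: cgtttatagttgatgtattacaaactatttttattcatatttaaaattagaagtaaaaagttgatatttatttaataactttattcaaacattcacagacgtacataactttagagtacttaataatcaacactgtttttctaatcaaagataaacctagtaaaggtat
cdc14/SPBC24C6.09C: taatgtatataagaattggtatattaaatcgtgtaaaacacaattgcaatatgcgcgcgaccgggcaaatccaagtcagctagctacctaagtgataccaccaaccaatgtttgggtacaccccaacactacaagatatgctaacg

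The next 2 had the lowest WT levels by the same criteria: smd3/phs1 at chrII:1702761-1702936 and SPBC19C2.10/mdm34 at chrII:1697173-1697446. The interval hht2/sfi1, at chrII:1365819-1366094, lay far below its flanking genes and holds the longest of these runs.
smd3/phs1: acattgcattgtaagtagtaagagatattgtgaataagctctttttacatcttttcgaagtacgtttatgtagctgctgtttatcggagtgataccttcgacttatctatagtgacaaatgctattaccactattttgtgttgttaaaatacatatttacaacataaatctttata
SPBC19C2.10/mdm34: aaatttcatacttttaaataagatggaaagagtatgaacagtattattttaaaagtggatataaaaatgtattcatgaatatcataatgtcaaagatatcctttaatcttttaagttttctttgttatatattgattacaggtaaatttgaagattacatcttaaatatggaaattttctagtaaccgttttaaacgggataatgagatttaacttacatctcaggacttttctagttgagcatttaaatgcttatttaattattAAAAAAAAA
hht2/sfi1: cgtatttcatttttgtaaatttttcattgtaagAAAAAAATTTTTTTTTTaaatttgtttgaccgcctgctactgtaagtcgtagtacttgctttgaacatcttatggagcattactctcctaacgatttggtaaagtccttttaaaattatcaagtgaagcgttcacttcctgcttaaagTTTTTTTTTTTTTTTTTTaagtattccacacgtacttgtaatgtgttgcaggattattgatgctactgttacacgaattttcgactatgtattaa

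The intervals scr1/pfd1, at chrII:1755620-1755900, and mbf1/fic1, at chrII:1543223-1543491, had the smallest p-values in pob3D cells. The last sequence is the stretch chrII:2939605-2939854 of the interval ubp9/SPBC1703.13C, the lowest in WT, with the proline tRNA gene SPBTRNAPRO.07 in capitals.
scr1/pfd1: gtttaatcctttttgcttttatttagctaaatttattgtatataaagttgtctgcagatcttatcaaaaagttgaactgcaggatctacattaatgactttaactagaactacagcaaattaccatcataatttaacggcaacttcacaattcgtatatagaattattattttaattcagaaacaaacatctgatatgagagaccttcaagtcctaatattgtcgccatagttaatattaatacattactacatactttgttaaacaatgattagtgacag
mbf1/fic1: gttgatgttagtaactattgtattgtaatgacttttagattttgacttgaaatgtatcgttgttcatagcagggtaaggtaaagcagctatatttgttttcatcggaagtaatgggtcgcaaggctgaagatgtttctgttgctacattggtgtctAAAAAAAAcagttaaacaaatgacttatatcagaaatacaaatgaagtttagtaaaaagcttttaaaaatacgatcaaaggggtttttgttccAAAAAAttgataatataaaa
ubp9/SPBC1703.13C: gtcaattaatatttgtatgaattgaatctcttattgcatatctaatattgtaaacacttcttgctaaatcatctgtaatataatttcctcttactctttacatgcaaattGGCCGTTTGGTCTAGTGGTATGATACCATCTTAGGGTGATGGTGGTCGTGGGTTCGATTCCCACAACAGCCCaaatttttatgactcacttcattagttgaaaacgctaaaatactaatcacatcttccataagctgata

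As a class, convergent intervals were close to the array median in every strain. Their median level was 0.057 in amo1D, -0.112 in rix1E414K and 0.095 in pob3D cells, against -0.051, -0.003 and -0.005 on the 3 WT arrays. Divergent intervals, which hold promoters, had medians of -0.050, -0.121 and -0.071 in the mutants, and -0.230, -0.006 and -0.038 in WT. Convergent exceeded divergent intervals on all 6 arrays, by 0.072 ± 0.094 in WT (SD, n = 3). That spread came from 1 array: the difference was 0.179 on WT array 1, and 0.003 and 0.033 on the other two. Against tandem intervals the WT difference was 0.013 ± 0.047 and changed sign between arrays. Against the 873 gene bodies, convergent intervals were lower on each WT array, with a mean difference of -0.060 ± 0.037. The plot of levels by array shows how wide each class was beside these shifts.

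**Figure D1:**
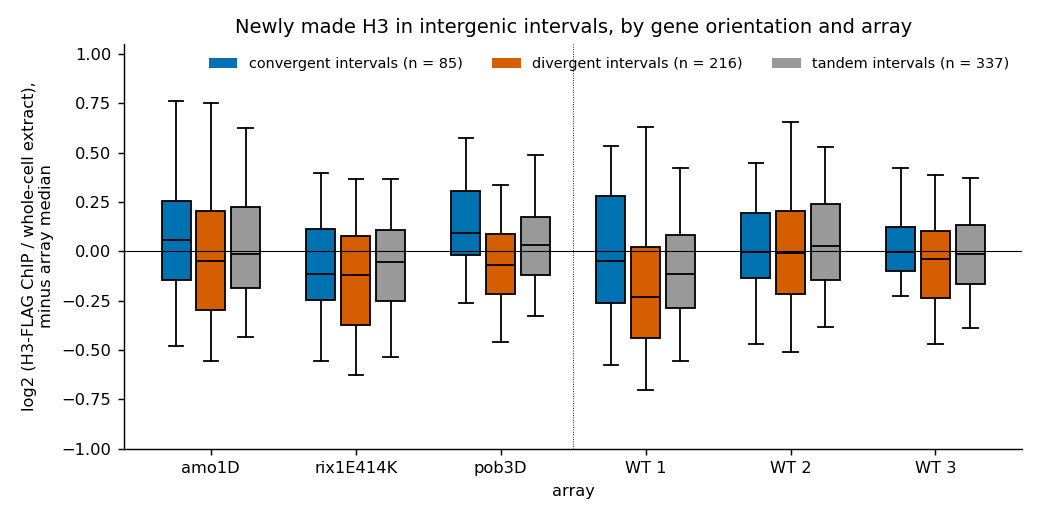
Level of newly made H3 (log2 ratio minus array median) in convergent, divergent and tandem intervals on each array, the 3 mutants left of the 3 WT arrays. Boxes span the quartiles with the median as a line, and whiskers leave out the outermost 5% on either side; the convergent median is 0.095 in pob3D and -0.051 to -0.003 on the WT arrays.

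Single intervals differed far more than the classes did. Their WT means ran between -0.57 and 0.73, and the arrays ranked them alike: over the 85 intervals, WT arrays correlated with Pearson's r of 0.74 to 0.80, as a description over regions that share arrays and probe composition. By limma's test of the WT level against the array median, with p-values adjusted over all 1511 features, 17 convergent intervals (20.0%) were higher, beside 22.6% of all features. A further 11 (12.9%) were lower, beside 17.1% of all features. Among divergent intervals 37 of 216 were higher and 68 lower. Without WT array 2, 10 convergent intervals were higher and 3 lower, and with loess normalisation within arrays 29 were higher and 8 lower.

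The 8 intervals named as highest in WT have neighbours of varied function. The interval tkt1/hmt2, between the genes of transketolase and a sulfide-quinone oxidoreductase, stood at 0.77, 0.27 and 0.31 in amo1D, rix1E414K and pob3D cells, against 0.50, 0.32 and 0.44 on the WT arrays (WT mean 0.42 ± 0.09, adjusted p = 0.00501). It was highest in amo1D, above every WT array. The interval cdc14/SPBC24C6.09C, beside a phosphoketolase-family gene and a gene of the septation initiation network, stood at 0.70, 0.32 and 0.46 in the same mutants, against 0.46, 0.44 and 0.35 in WT (0.42 ± 0.06, adjusted p = 0.00406). There too amo1D was the highest array.

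The interval eno101/cut2 separates the enolase gene from that of securin, the inhibitor of sister chromatid separation. It had 0.98 in amo1D, -0.44 in rix1E414K and 0.57 in pob3D cells, against 0.72, 0.40 and 0.09 in WT (0.40 ± 0.31, adjusted p = 0.0366). The rix1E414K array stood below all WT arrays and the amo1D array above them, and the WT arrays themselves differed by far more here than in most intervals. The call was lost without WT array 1 (adjusted p = 0.0623) or WT array 2 (adjusted p = 0.167). The eno101 gene body moved with it: it had 0.88, -1.39 and 0.06 in amo1D, rix1E414K and pob3D, against 0.60, 0.38 and -0.34 in WT. The cut2 gene body had 0.60, 0.36 and 0.37 in the same mutants, against 0.77, 0.56 and 0.38 in WT. In WT the interval lay between its 2 genes, which averaged 0.21 ± 0.49 (eno101) and 0.57 ± 0.20 (cut2), and 0.01 from their mean.

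The interval bzz1/SPBC12C2.04, beside the gene of an actin-organising membrane protein, differed least between the arrays among these 8, with 0.53, 0.40 and 0.48 in amo1D, rix1E414K and pob3D and 0.61, 0.41 and 0.46 in WT (0.49 ± 0.11, adjusted p = 0.00406). The interval SPBC16E9.15/lsd90 had 0.71, 0.67 and 0.20 in the mutants and 0.77, 0.15 and 0.65 in WT (0.52 ± 0.33, adjusted p = 0.0186), so that WT array 2 and pob3D stood low together. The interval nrf1/SPBC21B10.15, beside a gene for a regulator of the polyphosphate-making VTC complex, had 0.43, 0.09 and 0.57 in the mutants. Its WT arrays lay close together at 0.38, 0.44 and 0.42 (0.41 ± 0.03, adjusted p = 0.00406), with rix1E414K below and pob3D above all of them. The interval mag2/rpt6, which holds the small nucleolar RNA gene snR92, had 0.67, 0.39 and 0.55 in the mutants and 0.45, 0.39 and 0.24 in WT (0.36 ± 0.11, adjusted p = 0.00809). Of the calls given here, SPBC16E9.15/lsd90 lost its own without WT array 3 (adjusted p = 0.0555) and mag2/rpt6 without WT array 2 (adjusted p = 0.0678).

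Both of the lowest WT levels lay in long intervals that hold a tRNA gene. The interval ubp9/SPBC1703.13C, 1123 bases between genes for a ubiquitin hydrolase and a phosphate transporter, had -0.48, -0.70 and -0.05 in amo1D, rix1E414K and pob3D, against -0.80, -0.41 and -0.50 in WT (-0.57 ± 0.21, adjusted p = 0.00604). The pob3D array stood above all others. The interval meu18/stn1, 1189 bases with the arginine tRNA gene SPBTRNAARG.05 and beside the gene of the telomere-capping protein Stn1, had -0.48, -0.58 and -0.32, against -0.72, -0.49 and -0.47 in WT (-0.56 ± 0.14, adjusted p = 0.00406). Again pob3D was the least low.

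Among short intervals, smd3/phs1, beside a gene for a core spliceosome protein, had -0.54, -0.41 and -0.22 in amo1D, rix1E414K and pob3D and -0.63, -0.65 and -0.34 in WT (-0.54 ± 0.18, adjusted p = 0.00571). The interval SPBC19C2.10/mdm34, beside the gene of a subunit of the tether between endoplasmic reticulum and mitochondria, had -0.25, -0.31 and 0.10 in the mutants and -0.39, -0.39 and -0.18 in WT (-0.32 ± 0.12, adjusted p = 0.0129). In both, pob3D was the highest array, and both calls were lost without WT array 2 (adjusted p = 0.0549 and 0.0894). The other 4 named intervals, SPBC18E5.08/SPBC18E5.14C, SPBC32H8.15/utp24, cbp4/SPBC27B12.12C and pat1/mug124, averaged -0.30 to -0.26 in WT; SPBC32H8.15/utp24 and cbp4/SPBC27B12.12C passed the test, and the other two, at adjusted p = 0.0529 and 0.124, did not. The call of SPBC32H8.15/utp24 was lost without WT array 3 (adjusted p = 0.0659), and that of cbp4/SPBC27B12.12C without any one WT array (adjusted p of 0.0814, 0.0807 and 0.0502). With loess cbp4/SPBC27B12.12C came to -0.084 in WT, against -0.28 without it, and did not pass (adjusted p = 0.19). The plot of the named intervals sets all 6 arrays side by side.

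**Figure D2:**
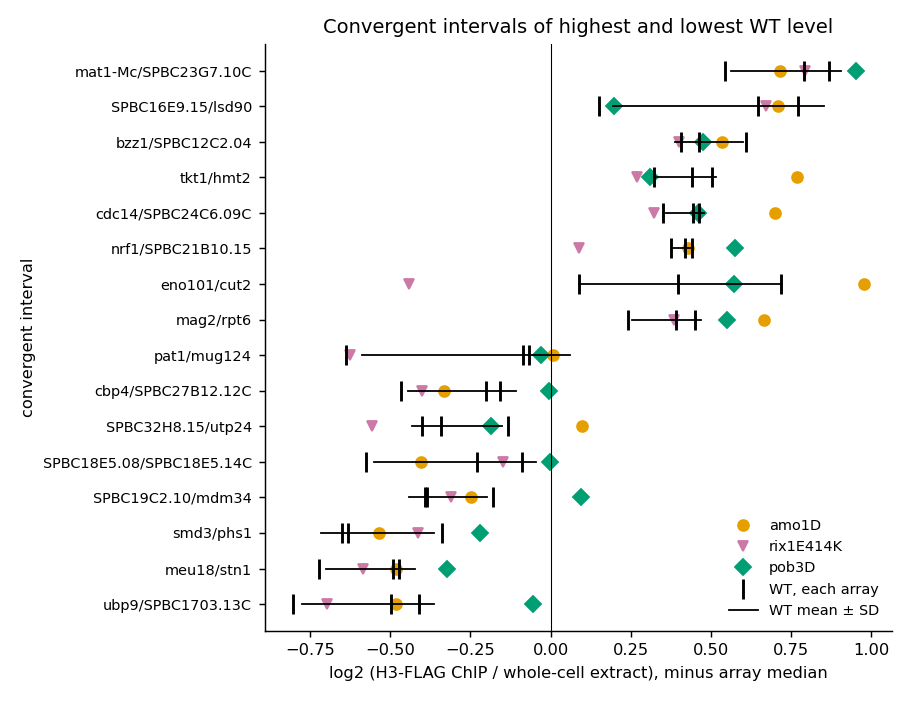
Level of newly made H3 (log2 ratio minus array median) in the 8 convergent intervals of highest and the 8 of lowest WT mean among those with 3 or more probes. Coloured symbols are the single mutant arrays, upright bars the 3 WT arrays and the horizontal line the WT mean ± SD; pob3D lies above all 3 WT arrays in ubp9/SPBC1703.13C (-0.05) and SPBC19C2.10/mdm34 (0.10).

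Set against their own flanking genes, more convergent intervals were lower than higher in WT. The interval minus the mean of its 2 flanking genes had a median of -0.048 in amo1D, -0.103 in rix1E414K and 0.026 in pob3D, against -0.116, -0.063 and -0.003 in WT. The WT mean of these medians was -0.061 ± 0.056 for convergent, -0.125 ± 0.121 for divergent and -0.098 ± 0.081 for tandem intervals. On the 3 WT arrays in turn, divergent intervals had -0.262, -0.030 and -0.085, and tandem ones -0.192, -0.051 and -0.050. Convergent intervals were thus the highest class on WT arrays 1 and 3 and the lowest on WT array 2. By limma's test over 636 intervals with 2 measured flanking genes, 15 of the 85 (17.6%) were lower than their flanks in WT, beside 30.0% of the 636. Only 4 (4.71%) were higher, beside 4.40%. Without WT array 2 these counts were 10 lower and 1 higher, and without WT array 3 they were 11 lower and 2 higher. With the GC trend of the probes removed they were 15 lower and 9 higher. With loess they became 7 lower and 15 higher, and the median turned to 0.027, so the balance of higher and lower depends on how the 2 dyes are scaled.

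The dip was deepest at ubp9/SPBC1703.13C, at -0.72 relative to its genes (adjusted p = 3.16e-11), and at pat1/mug124, at -0.66 (adjusted p = 4.45e-09). All p-values against flanks come from a separate limma fit that shares its spread across the 636 intervals. They therefore do not measure how far a single interval varied between its own WT arrays. The gene pat1 encodes the kinase that holds cells out of meiosis; its interval was itself uneven between WT arrays, at 0.01, -0.63 and -0.03 in amo1D, rix1E414K and pob3D and -0.64, -0.09 and -0.07 in WT. The interval hht2/sfi1 lay -0.56 below its genes (adjusted p = 3.11e-08), although its own level, 0.38, -0.16 and 0.18 in the mutants and 0.15, 0.17 and 0.01 in WT, did not pass against the array median (adjusted p = 0.168). The difference came from the hht2 side: hht2, which encodes the same H3.2 that the plasmid is named for, averaged 1.51 ± 0.28 in WT, and sfi1 -0.17 ± 0.02. How much of the hht2 value comes from the plasmid was not tested. The remaining pair of the 5 lowest were meu18/stn1, at -0.51 (adjusted p = 4.26e-07), and atf1/isp4, at -0.36 (adjusted p = 0.000357), which loess reduced to -0.11 (adjusted p = 0.176); Atf1 is the stress-response transcription factor and Isp4 an oligopeptide transporter.

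The interval that stood most above the mean of its 2 genes was mat1-Mc/SPBC23G7.10C, next to the expressed mating-type locus. It lay 0.34 over that mean (adjusted p = 8.90e-04), a call lost without WT array 3 (adjusted p = 0.0834). The 2 genes differed: mat1-Mc averaged 0.03 ± 0.06 in WT and SPBC23G7.10C 0.77 ± 0.08. The interval was between them, above mat1-Mc and slightly below SPBC23G7.10C. At 3118 bases and 63 probes it was the longest, and its level was 0.72, 0.79 and 0.95 in amo1D, rix1E414K and pob3D, against 0.54, 0.79 and 0.87 in WT (0.73 ± 0.17, adjusted p = 0.00329). The mutants did not leave the WT range except pob3D, which lay just above it. The signal was not spread evenly. The 8 probes of its left end have several matches in the genome, as the mating-type cassettes repeat, and averaged -0.12, 0.12 and 0.34 in the mutants and -0.13 ± 0.27 in WT. The 3 probes at 462 to 562 bases were not well above background on any of the 6 arrays: their Cy3 signal was 0.70 to 2.12, so their ratios are not read here. The neighbouring probes at 412 and 612 bases were dim too, with Cy3 signals of 5.34 to 12.3 and 16.0 to 53.4. Whether the strains carry this stretch was not tested. Next came a plateau: 22 probes from 712 to 1762 bases exceeded 1 on all WT arrays and averaged 1.30, 1.57 and 1.55 in the mutants and 1.46 ± 0.11 in WT. This plateau lay over the long non-coding RNA gene SPNCRNA.388. Over the right part, 23 probes from 2012 to 3112 bases, the level was 0.37, 0.20 and 0.62 in the mutants and 0.21 ± 0.33 in WT. Without these 5 dim probes, a choice made after seeing the data, the interval had 0.69, 0.77 and 0.96 in the mutants and 0.70 ± 0.19 in WT.

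The other interval of the 5 highest over their flanks that passed was but2/trz2, beside the gene of a tRNA 3′-processing enzyme, at 0.20 (adjusted p = 0.0496), a call lost without WT array 2 (adjusted p = 0.328) or WT array 3 (adjusted p = 0.119). With probes wholly inside the intervals its adjusted p was 0.0643, and with only the nearest 500 bases of each gene as flank it turned to -0.023. Beyond the named ones, rpl2502/emp46 and cyr1/SPBC19C7.04C also passed, each on 1 probe; with 500-base flanks the call of rpl2502/emp46 was lost (adjusted p = 0.0596).

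**Figure D3:**
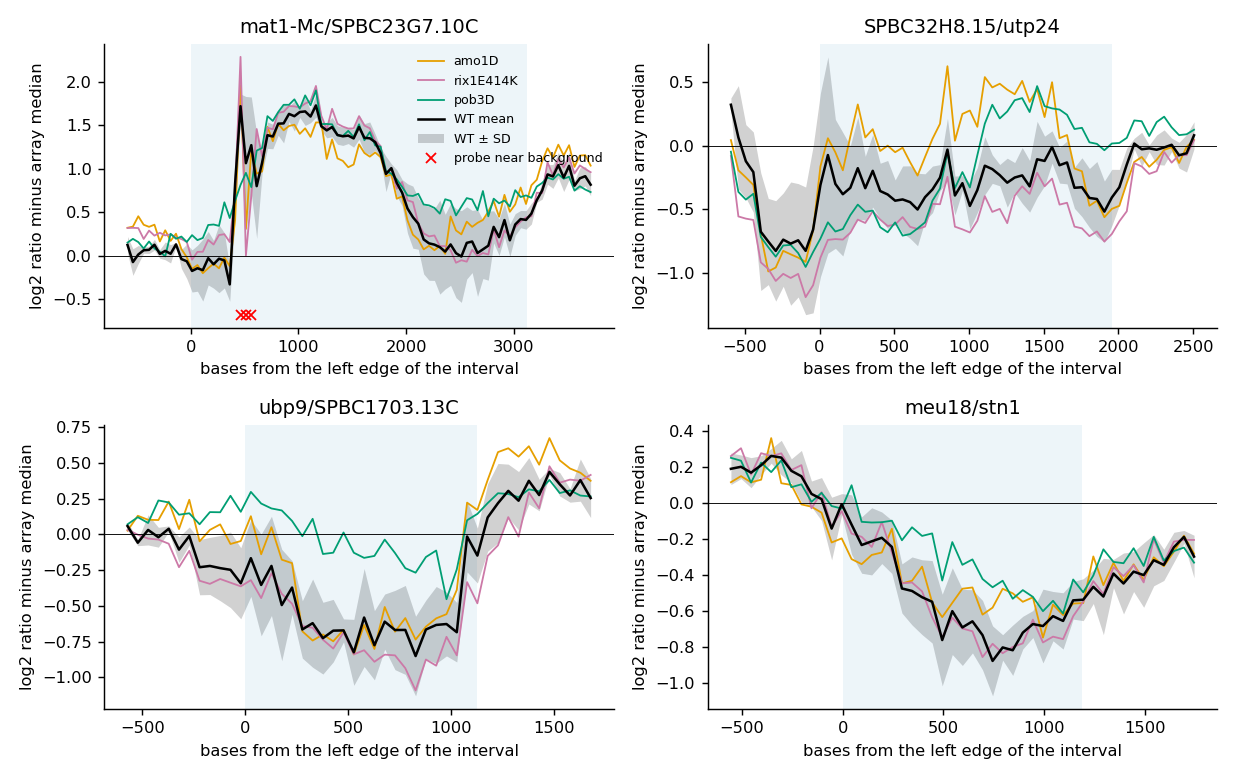
Level of newly made H3 along 4 of the 5 longest convergent intervals, by distance from the left edge (shaded, the interval; outside it, the flanking genes). Coloured lines are the mutant arrays, the black line and grey band the WT mean ± SD, and crosses mark probes near background; the plateau of mat1-Mc/SPBC23G7.10C reaches 1.46 in WT, and pob3D runs above WT in ubp9/SPBC1703.13C.

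Small RNA genes lay inside 6 intervals, 3 with a tRNA gene and 3 with a small nucleolar RNA gene. The probes on SPBTRNAPRO.07 in ubp9/SPBC1703.13C had -0.51, -0.83 and -0.27 in amo1D, rix1E414K and pob3D and -0.65 ± 0.23 in WT. Away from the tRNA gene by more than 300 bases the same interval had -0.47, -0.61 and 0.03, and -0.55 ± 0.24 in WT, so the low level was not limited to the tRNA gene. In meu18/stn1 the probes on SPBTRNAARG.05 had -0.52, -0.76 and -0.36 in the mutants and -0.70 ± 0.19 in WT, with -0.37 ± 0.13 in WT farther away. The tryptophan tRNA gene in tif307/sce3, between 2 genes for translation initiation factors, had 0.22, -0.50 and 0.35 in the mutants and -0.07 ± 0.15 in WT, and was thus not low in WT. The 3 intervals with a small nucleolar RNA gene averaged 0.03 to 0.36 in WT. All 6 intervals were higher in pob3D than on every WT array, beside 29.0% of all features, 3 of 8 divergent and 3 of 15 tandem intervals with a small RNA gene.

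The second longest interval, SPBC32H8.15/utp24, had 0.10, -0.56 and -0.18 in amo1D, rix1E414K and pob3D, against -0.40, -0.13 and -0.34 in WT (-0.29 ± 0.14, adjusted p = 0.0189). Over its first 1000 bases the mutants had 0.04, -0.61 and -0.53 and WT -0.32 ± 0.28. Over the rest they had 0.16, -0.50 and 0.18, and WT -0.26 ± 0.17. So amo1D was above the WT mean in both stretches, whereas pob3D was above it in the second one only. The second stretch includes dim probes, with Cy3 signals of 6.63 to 50.2 at 1106 bases and 23.8 to 110 at 1156 bases. Its level without them was not computed. The fifth longest, tif452/nfu1, with 992 bases, had -0.25, -0.18 and -0.02 in the mutants and -0.15 ± 0.16 in WT.

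Few convergent intervals border genes of the pathways listed for this study. Of the histone genes, hht2 and pht1 (the variant H2A.Z) face a convergent neighbour; the short interval cdc2/pht1 had -0.41, -0.37 and -0.02 in amo1D, rix1E414K and pob3D and -0.21 ± 0.02 in WT (adjusted p = 0.0189). Its 3 WT arrays were nearly equal, yet the call was lost without any one of them (adjusted p of 0.056, 0.0902 and 0.0644). With loess its WT level was -0.054 (adjusted p = 0.369), and with probes wholly inside the interval -0.14 (adjusted p = 0.0702). Of genes driven at S phase by the factor MBF, cdc18, the replication-licensing factor, lies at arc1/cdc18, with 0.55, -0.05 and 0.25 in the mutants and 0.19 ± 0.21 in WT. The MBF corepressor gene yox1 lies at yox1/rec6, with -0.03, -0.46 and -0.17 and -0.24 ± 0.21 in WT. Of the heterochromatin genes, tas3, for a subunit of the RITS complex of RNA interference, lies at ucp8/tas3, where the single probe had -0.48, -0.20 and 0.06 in the mutants and -0.19 ± 0.25 in WT. None of these 3 passed against the array median (adjusted p of 0.126, 0.0656 and 0.158). No gene of the cohesin or stress list bordered a convergent interval. Ribosomal protein genes bordered 8, whose WT levels ran between -0.42 and 0.41 with a median of 0.06; rps001/rpl2701 and rpl2502/emp46 were higher than the array median, rps2501/mad1 was lower, and 5 did not pass. Without WT array 2, rps001/rpl2701 and rps2501/mad1 did not pass either (adjusted p of 0.073 and 0.0986), nor did rps001/rpl2701 without WT array 1 (adjusted p = 0.0522).

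In pob3D cells, convergent intervals tended to lie above WT, while gene bodies did not. The median of pob3D minus WT was 0.107 over the 85 intervals, 0.097 within the slide that pob3D shares with WT array 3, and -0.010 over all 1511 features. The same median was 0.022 for divergent intervals, 0.057 for tandem ones and -0.041 for genes. Of the 85, 63 were above the WT mean and 43 (50.6%) above all 3 WT arrays, beside 29.0% of all features and 31.8% of the other intervals. Only 8 (9.41%) were below all WT arrays, beside 31.0% of all features. The gap between convergent and divergent medians, however, was 0.166 in pob3D and 0.179, 0.003 and 0.033 in WT, so it lay within the WT range. The gap between convergent intervals and genes was 0.083 in pob3D, against -0.102, -0.044 and -0.033 in WT, outside that range. It also lay outside that range in amo1D, at 0.026, and in rix1E414K, at -0.172, so this was not particular to pob3D.

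No single interval passed limma's test in pob3D: 0 of 85 had an adjusted p under 0.05, beside 0.00% of the 1511 features, with 0.522 the smallest adjusted p. At an unadjusted p under 0.05, 10 convergent intervals were higher, beside 5.16% of all features, and 0 were lower, beside 4.04%. In this fit the WT arrays supply all 2 residual degrees of freedom and each lone mutant array is assumed to vary like them, so the values below are differences seen on 1 array.

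The interval mbf1/fic1, between the genes of a transcription coactivator and of an anchor of the contractile ring, had 0.58 in pob3D, against 0.08, 0.05 and -0.05 in WT, a difference of 0.55 (SE 0.11). It was -0.01 in amo1D and -0.39 in rix1E414K, so pob3D and rix1E414K lay on opposite sides of WT. All 6 of its probes were above every WT array in pob3D, and the difference went on outside it. At 317 bases from its left edge, in the flanking gene, pob3D had 0.66, against 0.11, 0.16 and 0.06 in WT. The interval scr1/pfd1, beside the gene of the glucose-responsive repressor Scr1, which represses inv1, had 0.44 in pob3D and 0.34 in amo1D, against -0.13, -0.13 and -0.00 in WT. The pob3D difference was 0.53 (SE 0.11), and all 6 probes were again above every WT array. Both intervals were picked by these same values, and neighbouring probes read shared fragments on 1 array. The probes are therefore not separate measurements. The other 3 of the 5 smallest p-values on the higher side were at atf1/isp4, SPBC12C2.01C/nak1 and tif307/sce3. Their pob3D values were 0.36, 0.29 and 0.23, and their highest WT values 0.03, -0.03 and -0.05. In ubp9/SPBC1703.13C the difference was 0.52 (SE 0.17) and in SPBC19C2.10/mdm34 0.41 (SE 0.13).

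On the other side, the 5 with the smallest p among the lower ones, SPBC3D6.16/wsc1, coq8/alb1, rpl2502/emp46, ppk27/cct8 and SPBC16E9.20/rem1, differed by -0.22 to -0.16. The intervals coq8/alb1, rpl2502/emp46 and ppk27/cct8 rest on 1 or 2 probes. The gene rem1 encodes a meiotic cyclin, and its interval had 0.20 in pob3D, against 0.34, 0.29 and 0.43 in WT.

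In amo1D cells the shift from the WT mean was smaller than in pob3D, but within the slide it was not (0.112 against 0.097). The amo1D shift depended more on which WT arrays it was set against. The median of amo1D minus WT was 0.063, with 0.112 within its slide, 0.024 without WT array 1 and 0.091 without WT array 3; over all features it was 0.011. Divergent and tandem intervals shared it, with medians of 0.051 and 0.053, and of 0.155 and 0.135 within the slide. Of the 85, 54 were above the WT mean and 29 (34.1%) above all WT arrays, beside 26.7% of all features and 31.6% of the other intervals. Another 13 (15.3%) were below all, beside 21.5% of all features and 10.3% of the other intervals. Again 0 passed after adjustment, beside 0.00% of all features, with 0.981 the smallest adjusted p among the intervals. Unadjusted, 12 were higher, beside 3.51%, and 0 lower, beside 0.331%.

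The 5 smallest p on the higher side in amo1D belonged to pof2/mot1, mei4/act1, atf1/isp4, scr1/pfd1 and but2/trz2. The interval mei4/act1, between the gene of the meiotic forkhead factor Mei4 and that of actin, had 0.80 in amo1D, against 0.28, 0.33 and 0.09 in WT, a difference of 0.57 (SE 0.13). At atf1/isp4 amo1D had 0.40, against -0.03, 0.03 and -0.00 in WT, a difference of 0.40 (SE 0.10). At but2/trz2 it had 0.73, against 0.41, 0.16 and 0.28. All 3 intervals also lay above every WT array in pob3D, at 0.55, 0.36 and 0.62. These comparisons share the same 3 WT arrays. On the lower side the 5 smallest p-values were at pxl1/erb1, mis3/btb2, cdc2/pht1, rpl2502/emp46 and sfc6/opi10, with differences of -0.25 to -0.18 and 1 to 3 probes each.

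The interval pof2/mot1, beside the gene of the TBP-removing ATPase Mot1, had the largest amo1D difference, 0.71 (SE 0.15): 0.81 in amo1D, against -0.07, 0.11 and 0.25 in WT. Relative to its flanking genes it was the only convergent interval past the threshold in a mutant (difference 0.74, SE 0.17, adjusted p = 0.0163), beside 0.157% of the 636 intervals called in amo1D. This contrast was added after values had been seen. It rests on 1 of 2 probes: one read 1.32 in amo1D and -0.09 ± 0.32 in WT, the other 0.29 in amo1D and 0.28 ± 0.13 in WT. With probes wholly inside the interval, the difference was 0.039. The call was also lost with quantile normalisation (0.61, adjusted p = 0.997), with arrays scaled to 1 spread (0.63, adjusted p = 0.597) and with 500-base flanks (0.57, adjusted p = 1).

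In rix1E414K cells, convergent intervals tended to lie below WT. The median of rix1E414K minus WT was -0.050, with -0.088 within its slide, -0.080 without WT array 1, and -0.005 over all features. Divergent and tandem intervals lay below WT as well, with medians of -0.027 and -0.032, and of -0.134 and -0.099 within the slide. Of the 85, 57 were below the WT mean and 32 (37.6%) below all WT arrays, beside 25.8% of all features and 29.5% of the other intervals. Only 8 were above all WT arrays, beside 25.3% of all features and 15.0% of the other intervals, and 21 were above the remaining pair without WT array 3. After adjustment 0 passed, beside 0.00% of all features, with 0.890 the smallest adjusted p. Unadjusted, 9 were lower, beside 4.50%, and 1 was higher, beside 1.06%. That one was gcv3/SPBP19A11.02C, with 0.54 in rix1E414K, against 0.28, 0.33 and 0.30 in WT.

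The lowest relative to WT was eno101/cut2, at -0.84 (SE 0.23), described above. At wdr74/SPBC83.16C, next to the gene of a ribosome biogenesis protein, the only probe read -0.55 in rix1E414K, against 0.15, -0.08 and -0.03 in WT. At mbf1/fic1 the difference was -0.42 (SE 0.11). At SPBC3D6.16/wsc1, next to the gene of a cell wall sensor, rix1E414K had -0.25, against 0.16, 0.20 and 0.07 in WT. The interval tif307/sce3 had -0.56 in rix1E414K, against -0.18, -0.05 and -0.23 in WT, while amo1D, at 0.14, and pob3D, at 0.23, were above all WT arrays. On the higher side the next smallest p-values, at SPBC12C2.01C/nak1, naa30/atg9, ppk27/cct8 and coq8/alb1, went with differences of 0.13 to 0.18.

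In all 3 mutants, intervals of 300 bases or more lay farther from WT than shorter ones. In pob3D the median difference was 0.067 for the 62 intervals under 300 bases, 0.150 for the 19 of 300 to under 1000 bases and 0.230 for the 4 longer ones. Of these, 29 (46.8%), 11 (57.9%) and 3 lay above all WT arrays, beside 29.0% of all features. In amo1D the medians were 0.035, 0.136 and 0.085, and in rix1E414K -0.023, -0.179 and -0.075, so in these strains the middle group was farthest from WT. Over the 85 intervals Spearman's rho between length and difference was 0.38 in pob3D, 0.39 in amo1D and -0.30 in rix1E414K, a description across regions measured on the same arrays. Longer intervals hold more probes, and the WT level itself was nearly unrelated to length, with a rho of -0.076. The other intervals varied with length too. Over the same 3 length groups, the medians in pob3D were -0.052, 0.018 and 0.066 for divergent and 0.048, 0.087 and 0.006 for tandem intervals. In amo1D they were -0.017, 0.036 and 0.083 for divergent and -0.006, 0.061 and 0.139 for tandem ones. In rix1E414K they were 0.025, 0.002 and -0.142 for divergent and -0.004, -0.016 and -0.176 for tandem ones. In amo1D and rix1E414K, then, intervals of 1000 bases or more lay farther from WT than those under 300 bases in every orientation.

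**Figure D4:**
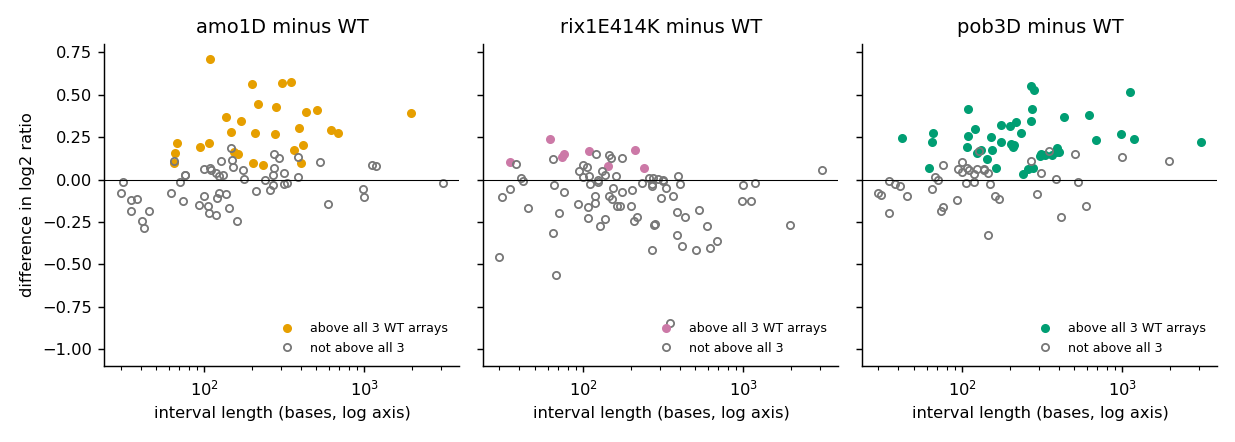
Mutant minus WT difference in log2 ratio of each of the 85 convergent intervals against its length (log axis), 1 panel per mutant. Filled points lie above all 3 WT arrays (29 in amo1D, 8 in rix1E414K and 43 in pob3D), open points do not.

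Centred on the midpoint between the genes, the profiles had different widths in the 3 mutants. In pob3D the mean difference from WT over the 85 convergent pairs was 0.122 at the midpoint and -0.013 and -0.032 at 600 bases to the left and right. At the midpoint of divergent pairs it was 0.031, of tandem pairs 0.072, and of 134 convergent pairs whose genes overlap without one lying inside the other 0.037. In amo1D the difference was 0.087 at the midpoint and 0.087 and 0.056 at 600 bases to the left and right, and in rix1E414K -0.092, with -0.086 and -0.046. At the midpoint of divergent and tandem pairs it was 0.071 and 0.062 in amo1D and -0.079 and -0.054 in rix1E414K, so all 3 orientations differed in the same direction there. At the overlapping pairs it was -0.013 in amo1D and -0.002 in rix1E414K. In WT, the convergent profile dipped to 0.013 ± 0.025 at the midpoint, beside 0.118 ± 0.058 and 0.120 ± 0.051 at 600 bases to the left and right. The overlapping pairs had 0.026 ± 0.020 at the midpoint, beside 0.077 ± 0.032 and 0.059 ± 0.031. At the midpoint of divergent pairs WT had -0.081 ± 0.118, with WT array 1 lowest at -0.210.

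**Figure D5:**
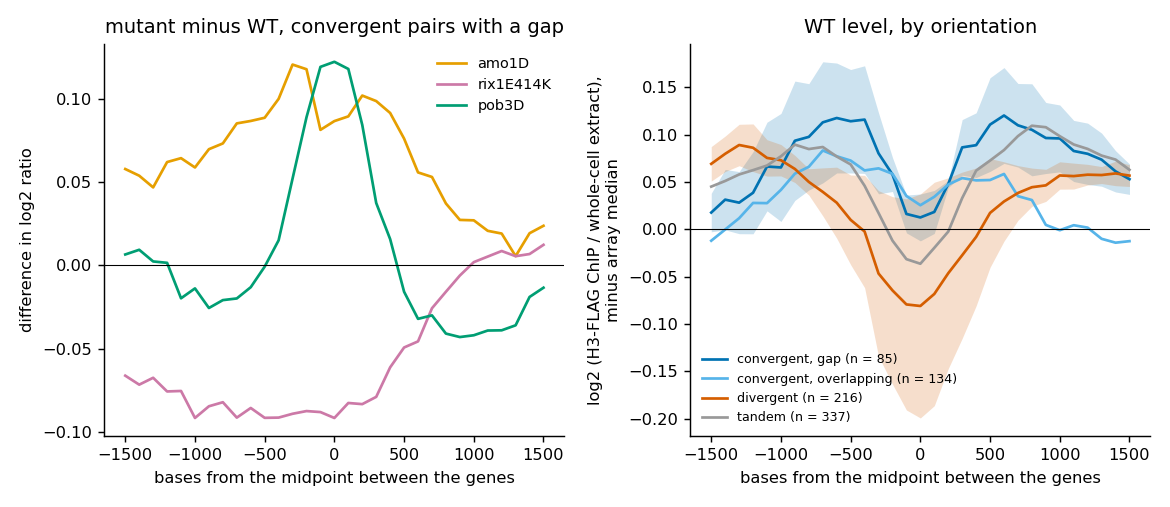
Left, mean mutant minus WT difference in log2 ratio around the midpoint of the 85 convergent intervals, in bins of 100 bases. Right, WT mean level around the midpoint for 4 kinds of gene pair, with bands of ± SD over 3 arrays for convergent and divergent pairs; pob3D minus WT peaks at 0.122 at the midpoint, and the WT convergent profile dips there to 0.013.

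Read channel by channel, pob3D lay within the range of the WT arrays in both Cy5 and Cy3. The amo1D array lay within it in Cy5, but below every WT array in Cy3. Relative to each array's median signal, on the log2 scale, convergent intervals had a median Cy5 signal of -0.64 in amo1D, -0.39 in rix1E414K and -0.50 in pob3D, against -0.77, -0.57 and -0.48 on the WT arrays (-0.61 ± 0.14). Their median Cy3 signal was -0.75, -0.30 and -0.57 in the mutants, against -0.71, -0.61 and -0.49 in WT (-0.60 ± 0.11). The differences from the WT mean given next are a separate summary. They are not differences of these class medians and need not equal them. Which channel carried the higher ratio depended on the WT arrays: pob3D exceeded the WT mean by 0.112 in Cy5, but on its own slide it differed from WT array 3 mainly by a lower Cy3. In amo1D the Cy3 difference from the WT mean was -0.067, whereas on its own slide the higher Cy5 made up most of the difference from WT array 1. The rix1E414K array was brighter than every WT array in both channels, by 0.276 in Cy5 and 0.322 in Cy3 over the WT mean, and by similar amounts in divergent intervals (0.276 and 0.336) and tandem ones (0.290 and 0.335). The part of hybridisation strength in these differences was not tested.

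Base composition went along with the level. Over the 85 intervals, Spearman's rho with GC content was 0.24 for the WT level and 0.35 for the interval minus its flanks. The motif AAAAAA, searched on both strands and counted once per interval however often it overlapped itself, was present in 47 of 85 convergent intervals (55.3%), 81.9% of divergent and 65.0% of tandem ones. Among intervals of 100 to under 300 bases the shares were 51.2%, 44.7% and 51.1%. Convergent intervals of that length with such a run had a median WT level of -0.046, and those without it -0.00044. This was not particular to them: the same medians were -0.203 and -0.112 for divergent and -0.093 and -0.020 for tandem intervals. Other annotated genes lay inside 33 intervals. There pob3D minus WT had a median of 0.150, and 0.062 in the 52 without one. The 33 were also longer, with a median of 305 bases against 124. With and without another gene, the pob3D medians were 0.037 and -0.015 in divergent intervals. In tandem ones they ran the other way, at 0.044 and 0.124. The part of length in this contrast was not tested.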

How the data were processed

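Agilent Feature Extraction 12.0.3.1 (per the file headers) gave, per 60-base probe at 50-base steps, the deposited Cy5 and Cy3 processed intensity, already background-subtracted and dye-normalised. The authors' deposited value table holds the same Cy5/Cy3 ratio. The genome build of the probe coordinates is not given in the sources used here; array positions minus 900 left of the centromere, or minus 1800 right of it, gave the ASM294v3 position, and in 42 of 42 windows of 50000 bases the probes' signal fitted the reference GC content best within 15 bases of that shift (r 0.25 to 0.55). The centromere was left out. The log2 ratio was centred on each array's median, 0 to 19 outlier spots per array were dropped, and probes were averaged per feature by centre. limma 3.58.1 in R 4.3.3 (lmFit, eBayes, 1 coefficient per genotype, prior degrees of freedom 4.01) tested all 1511 features with Benjamini-Hochberg adjustment at 0.05. Interval minus flank differences had a fit of their own over 636 intervals, with a prior of its own that is not given here. Each slide held 1 mutant and 1 WT array (amo1D with WT 1, rix1E414K with WT 2, pob3D with WT 3); slide as a block leaves no residual degrees of freedom, so within-slide differences are given. Of the 85 intervals, 14 rest on 1 probe, 16 on 2 and 55 on 3 or more, which, with the number of arrays, limits precision. Intervals are named by rule: the 8 highest and 8 lowest in WT and the 5 highest and 5 lowest against flanks (3 or more probes), the 5 smallest p per mutant and direction, the 5 longest, and those with a small RNA gene or a flanking gene of the lists (glycolytic, histone, stress, MBF, heterochromatin, cohesin, ribosomal protein). The members and lists were chosen with earlier results of these data known. No untagged control was analysed here. Mean signals were not used here: the files held median signals, which the background alternatives took instead.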

Additional observations from a re-analysis of the deposited data

How the results depend on the processing

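The adjusted test called 0 convergent intervals in each mutant under all 16 alternatives run for it. The alternatives that drop members move counts by construction, and the cause of the other changes was not tested. For the 55 intervals with 3 or more probes, the median differences from WT were 0.098 in amo1D, -0.094 in rix1E414K and 0.163 in pob3D, 3 lay above all WT arrays in rix1E414K, 11 were higher and 7 lower than the WT array median, and 1 was higher than its flanks. For the 52 without another annotated gene, the medians were 0.034 in amo1D and 0.062 in pob3D, 13 lay above all WT arrays in amo1D and 22 in pob3D, 5 were lower in WT and 9 lower than their flanks, and convergent exceeded tandem intervals by 0.080 in WT. With probes wholly inside, pob3D had a median of 0.135, 4 lay above all WT arrays in rix1E414K and 2 were higher than their flanks. With loess, 29 were higher in WT, 15 higher and 7 lower than their flanks, and the medians were 0.072 for the WT level and 0.027 against flanks. With normexp on median signals, 16 lay above all WT arrays in rix1E414K and 7 were higher than their flanks; with the GC trend removed these counts were 13 and 9. With 500-base flanks, 1 was higher and 9 lower than the flanks, and but2/trz2 turned to -0.023. Within slides the medians were 0.112 in amo1D and -0.088 in rix1E414K. Leaving out 1 WT array at a time gave medians of 0.024 to 0.091 in amo1D, -0.080 to -0.045 in rix1E414K and 0.089 to 0.147 in pob3D; 10 to 21 intervals above all remaining WT arrays in rix1E414K; 10 to 18 higher and 3 to 12 lower in WT; and 1 to 5 higher than their flanks. No paired analysis was possible because no mutant shares 2 replicate numbers with WT; the slides do pair each mutant with 1 WT array, but slide as a block leaves no residual degrees of freedom, so the within-slide medians carry no test. Of single named results, 937 values kept direction and side of the threshold, 47 lost the call and 1 reversed. The 937 include 149, 148 and 146 differences of amo1D, pob3D and rix1E414K from WT, which had no call to lose. Among WT levels 310 values kept the call and 24 lost it. Among WT differences from flanks 173 kept it, 19 lost it and 1 reversed. Low signal limits the 5 dim probes of mat1-Mc/SPBC23G7.10C and others, such as those of SPBC32H8.15/utp24. The number of arrays limits all results.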
